A study of Drosophila melanogaster with 6 samples.

Results

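Mitochondria carry ribosomes of their own, which translate the few respiratory chain subunits encoded by mitochondrial DNA. The proteins of these mitoribosomes are encoded in the nucleus, made in the cytoplasm and imported. Many descend from bacterial ribosomal proteins and the rest were added during the evolution of mitochondria. The early *Drosophila* embryo inherits its mitochondria, and mRNAs for their upkeep, from the egg, and the maternal-to-zygotic transition (MZT) then replaces maternal mRNAs with zygotic ones. In the fly, symbols that begin with *mRpL* name proteins of the large subunit and symbols that begin with *mRpS* those of the small subunit.

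Loci whose symbol is *mRpL* or *mRpS* followed by a number were taken from the deposited expression table, and 62 of 16596 loci lay on 2L, 2R, 3L or 3R. A further 11 *mRp* loci lie on the X chromosome, where all 2535 loci are listed at 0 in both genotypes, so their mRNA was not described here. The 62 loci comprise 39 *mRpL* and 23 *mRpS* genes. All 62 had an FPKM (expression normalized to transcript length and mapped reads) of at least 1 in either genotype, the filter that 6265 of 13880 loci on these arms passed. They were chosen by name, without a limit on any measured value, but with earlier results of these data known.

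mRNA was sequenced from hand-sorted stage 5 embryos, which are cellularizing. There were 3 samples of *w1118*, the control strain with wild-type maternal *zld*. A further 3 came from embryos whose mothers were homozygous for *zldZnF2*, an allele in which a cysteine of the second zinc finger of the activator Zelda (ZLD) is replaced by serine. Females of this genotype are sterile and their embryos die late in embryogenesis, so the embryos show a maternal effect, and their own genotype is not given in the labels. The deposited table holds 1 FPKM per genotype over its 3 samples. No spread between replicates, depth or test across replicates can therefore be given, and every difference below compares 1 value with 1 value. A difference is given as the log2 ratio of *zldZnF2* over *w1118* after adding 1 to each FPKM. A lower value in whole embryos can come from less of an RNA per cell or from a smaller share of cells that hold it. As FPKM is relative to all mapped reads, more of other RNAs can also lower it. These cannot be told apart.

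The labelled stage was compared with its markers. All 10 patterning and cellularization genes listed for stage 5 (among them *slam*, *Sry-alpha*, *eve* and *twi*) were above 100 FPKM in both genotypes, from 102.3 to 1919 in *w1118* and from 127.4 to 1927 in *zldZnF2*. They did not all go the same way. *bnk* (1398 and 872.2 FPKM) and *hb* (206.6 and 160.6) were lower in *zldZnF2*, and *ftz* (108.6 and 211.2) and the others were higher. Whether the genotypes match in exact stage was not tested. The summed level of 7 eggshell genes was 1.24 FPKM in *w1118* and 1.67 in *zldZnF2*, with *Cp19* and *Vm26Ab* at 0 in both. The summed level of 5 muscle genes was 35.0 FPKM in *w1118* and 2.59 in *zldZnF2*. *Act57B* (21.7 and 0.336 FPKM) made up most of it, *Mf* was at 0 in *zldZnF2*, and *Prm* had the opposite order (0.896 and 1.91 FPKM). The summed level of 3 nervous system genes was 1.45 and 0.468 FPKM. Their part in the results below was not tested.

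Most mitoribosomal mRNAs had nearly the same level in both genotypes, and the widest differences were those of a small group of weakly expressed genes that were listed higher in *zldZnF2*. Of the 62 genes, 51 (82.3%) were within 1.5-fold, compared with 61.1% of all 6265 loci. 6 genes were over 2-fold higher in *zldZnF2* (background 9.82% of loci) and 0 were over 2-fold lower (background 8.16%). The same 6 were the only ones over 1.5-fold higher (background 21%), and 5 were over 1.5-fold lower (background 17.9%). The share of members over 2-fold higher, 9.68%, was thus near the background, and the other 3 shares were below it. The median log2 ratio was -0.05 over the members and -0.00 over all loci. The interquartile range of the members ran from -0.23 to 0.11 and that of all loci from -0.41 to 0.46. The members also had higher levels, with a median of 64.2 FPKM in *w1118* against 20.0 over all loci. Above 12 FPKM in *w1118*, 90.9% of 55 members and 75.2% of 3677 loci were within 1.5-fold. From 5 to 12 FPKM the shares were 14.3% of 7 members and 48.4% of 854 loci. These limits were set after the values were seen, and the part of the level was not tested. The summed FPKM of the 62 genes was 4143 in *w1118* and 3927 in *zldZnF2*, a difference of -5.21%, and the same difference over all loci was -1.87%.

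**Figure D1:**
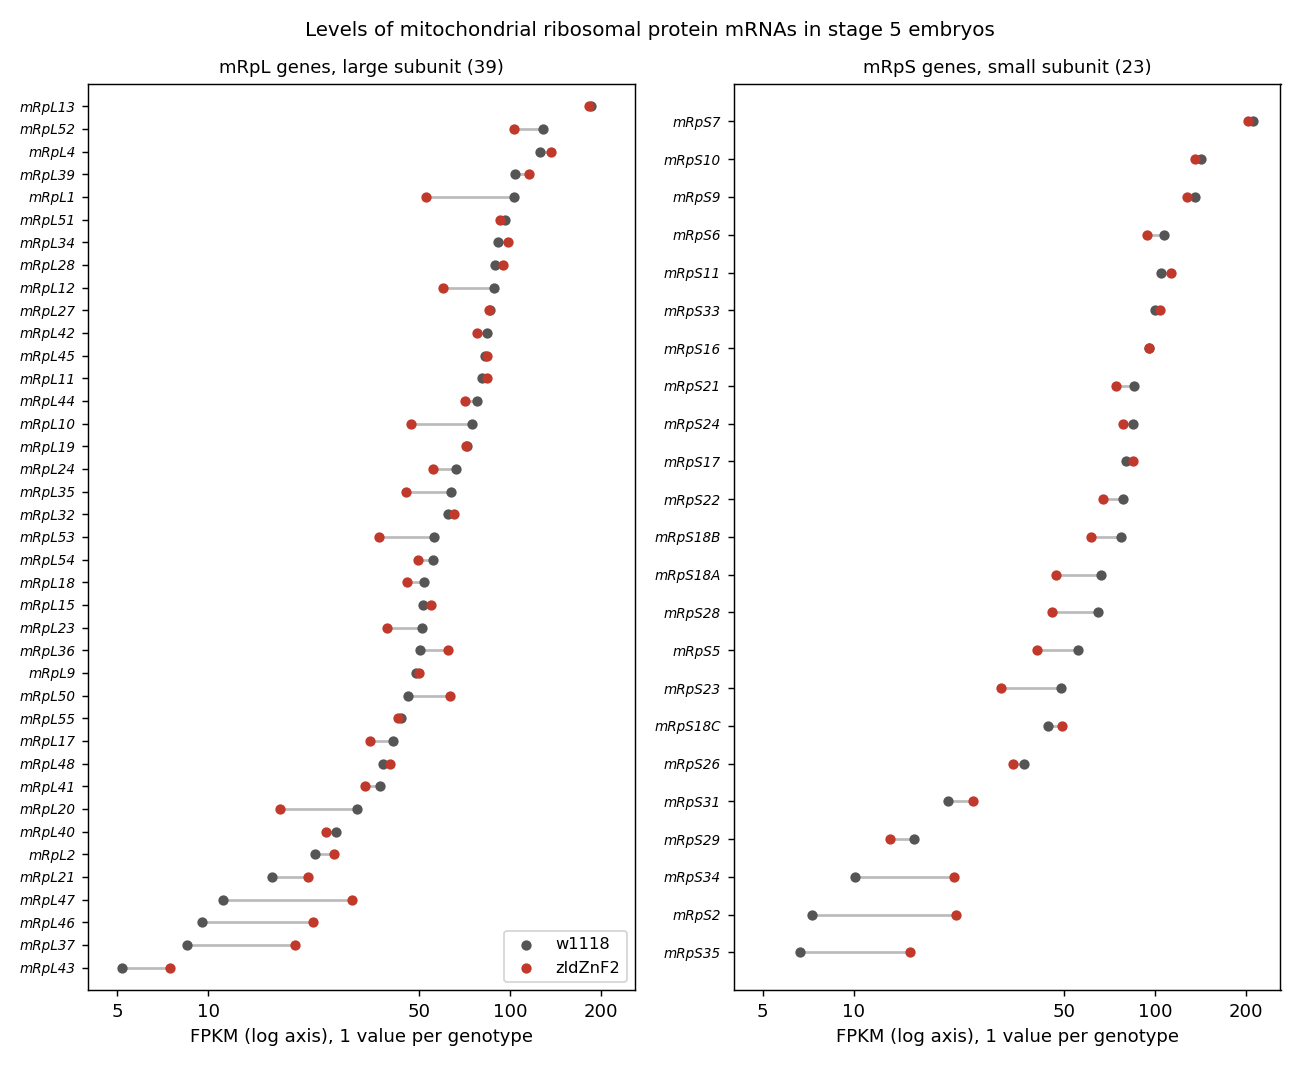
FPKM of each of the 62 mitoribosomal protein genes (log axis, 1 value per genotype over 3 samples, no error bars possible) in *w1118* (grey) and *zldZnF2* (red), with the 39 *mRpL* genes on the left and the 23 *mRpS* genes on the right, ordered by the *w1118* level. Most pairs of points lie close together above 12 FPKM, and the wide gaps with red on the right are those of *mRpL37*, *mRpL46* and *mRpL47* and of *mRpS2*, *mRpS34* and *mRpS35*.

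The mRNAs for proteins that are present in the same particle spanned a wide range of levels. The median FPKM of the members was 64.2 in *w1118* and 53.8 in *zldZnF2*, above the median of 20.0 over all loci in *w1118*. *mRpS7*, which in bacteria binds the head of the small subunit near the exit of the mRNA, had the highest level at 210.7 FPKM in *w1118* and 202.3 in *zldZnF2*. It was followed in *w1118* by *mRpL13* (185.8 FPKM), *mRpS10* (141.6), *mRpS9* (135.8) and *mRpL52* (129.2). The value of *mRpL13* is that of a row it shares with *CG10602*, so it cannot be assigned to either gene. At the other end stood *mRpL43* with 5.20 FPKM in *w1118* and 7.49 in *zldZnF2*, the lowest of the 62 in both genotypes. *mRpS7* and *mRpL13* were likewise the first and second in both genotypes.

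The 6 genes that were higher in *zldZnF2* are 3 of the large and 3 of the small subunit. *mRpS2* (FBgn0031639; dm6, 2L, 4849439 to 4850419), the counterpart of a bacterial small subunit protein, was at 7.28 FPKM in *w1118* and 21.9 in *zldZnF2*, a log2 ratio of 1.47. *mRpL47* (FBgn0014023; 3R, 9514822 to 9515908), whose mammalian counterpart sits at the mouth of the exit tunnel for the new protein, was at 11.2 and 30.0 FPKM, a log2 ratio of 1.35. These were the widest gaps between the genotypes among all 62 genes on the log2 scale.

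*mRpL46* (FBgn0035272; 3L, 1777439 to 1778347) was at 9.52 FPKM in *w1118* and 22.2 in *zldZnF2*, a log2 ratio of 1.14. Its mammalian counterpart belongs to the central protuberance, the crest of the large subunit. *mRpS35* (FBgn0035374; 3L, 2780899 to 2782105) was at 6.62 and 15.4 FPKM, a log2 ratio of 1.11, and *mRpL37* (FBgn0261380; 3R, 10782563 to 10784092) at 8.52 and 19.4 FPKM, a log2 ratio of 1.10. Both encode proteins with no bacterial counterpart. *mRpS34* (FBgn0285951; 3L, 16348074 to 16348782), another protein found only in mitochondria and needed in humans for a stable small subunit, was at 10.1 and 21.6 FPKM, a log2 ratio of 1.02 that lies just past the 2-fold limit. No member lay between it and the next gene, *mRpL43*, with a log2 ratio of 0.45. *mRpL50*, which has no bacterial counterpart, was at 46.1 FPKM in *w1118* and 63.3 in *zldZnF2*, also a log2 ratio of 0.45 and within the 1.5-fold limit.

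The 6 genes were 6 of the 7 members with the lowest levels in *w1118*. All 7 members between 5 and 12 FPKM in *w1118*, a window set after the values were seen, had a log2 ratio above 0, and the seventh was *mRpL43*. In *zldZnF2* the 6 genes were at 15.4 to 30.0 FPKM, still below the median of the members. The *w1118* level enters both the window and the ratio, and the values of all loci in the window are therefore given beside those of the members. Over the 854 loci in the same window, the median log2 ratio was 0.36 and 16.4% were over 2-fold higher, where the median of the 7 members was 1.11. Because the window was set after the values were seen, this contrast is not a test. Below 25 FPKM in *zldZnF2*, a limit also not fixed beforehand, 11 members had a median log2 ratio of 0.45, with 8 above 0 and 3 below. Above 12 FPKM, 0 of 55 members and 6.45% of 3677 loci were over 1.5-fold higher. In the same range 5 members, and 18.3% of loci, were over 1.5-fold lower.

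**Figure D2:**
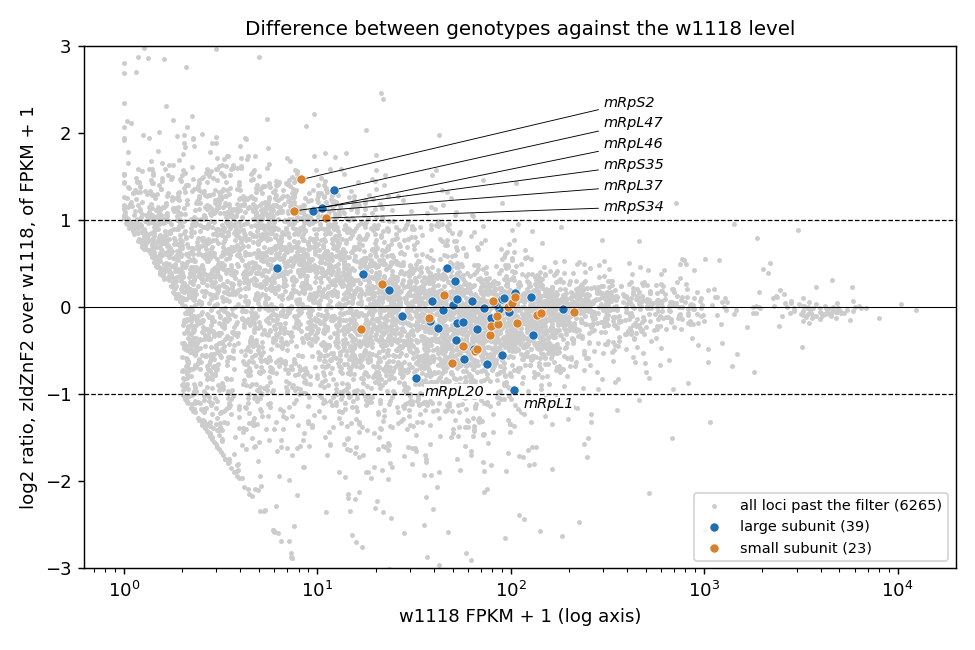
Log2 ratio of *zldZnF2* over *w1118* (FPKM + 1) against the *w1118* level (FPKM + 1, log axis) for the 39 large (blue) and 23 small subunit genes (orange) over all 6265 loci past the filter (grey; 21 loci lie beyond the plotted range). Dashed lines mark 2-fold. The 6 named genes above the upper line all lie near 10 on the horizontal axis, and *mRpL1* lies just inside the lower line.

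No gene was over 2-fold lower in *zldZnF2*, and the 5 over 1.5-fold lower were *mRpL1*, *mRpL20*, *mRpL10*, *mRpS23* and *mRpL53*. *mRpL1* (FBgn0037566; 3R, 8301440 to 8302770), whose bacterial counterpart forms the stalk at the tRNA exit site, was at 103.1 FPKM in *w1118* and 52.6 in *zldZnF2*. Its log2 ratio of -0.96, or 1.94-fold lower, was the lowest of the 62 and just short of 2-fold. Its nearest members in the order of *w1118* levels were *mRpL39* (103.7 FPKM) and *mRpS33* (100.1 FPKM), and both of these were slightly higher in *zldZnF2*, at 116.2 and 103.6 FPKM.

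*mRpL10* (FBgn0031231; 2L, 203779 to 204782), the base of the stalk that binds translation factors, was at 74.7 FPKM in *w1118* and 47.2 in *zldZnF2*, a log2 ratio of -0.65. *mRpL12* (FBgn0011787; 3L, 8956791 to 8957584), which is carried on it in several copies, was at 88.6 and 60.2 FPKM, a log2 ratio of -0.55 within the 1.5-fold limit. *mRpL11*, at the foot of the same stalk, was at 81.1 and 83.8 FPKM. Of these 3 proteins of the same stalk, only *mRpL10* was past 1.5-fold.

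*mRpL20* (FBgn0036335; 3L, 13017149 to 13017867), whose bacterial counterpart is among the first proteins to join the growing large subunit, was at 31.2 FPKM in *w1118* and 17.3 in *zldZnF2*, a log2 ratio of -0.81. *mRpS23* (FBgn0260407; 2L, 13834250 to 13835072), a protein found only in mitochondria, was at 48.6 and 30.8 FPKM, a log2 ratio of -0.64. The log2 ratio of -0.59 listed for *mRpL53* (FBgn0050481; 2R, 13954195 to 13955664) belongs to a row shared with *CG33155*, whose annotated exons cover those of *mRpL53* completely. *mRpS28* (64.5 and 45.3 FPKM) and *mRpS18A* (66.0 and 46.9 FPKM) followed with log2 ratios of -0.50 and -0.48.

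The subunits had similar medians. The median log2 ratio was -0.02 over the 39 *mRpL* genes and -0.09 over the 23 *mRpS* genes. Of them, 32 (82.1%) and 19 (82.6%), respectively, were within 1.5-fold. The share was 61.1% of all loci and 75.2% of loci above 12 FPKM in *w1118*. The summed level in *zldZnF2* differed from that in *w1118* by -4.88% for the *mRpL* genes and by -5.70% for the *mRpS* genes. With FPKM scaled to an equal sum in both genotypes, the median of the *mRpL* genes was 0.01 and that of the *mRpS* genes -0.07. The proteins were also split by the number in the symbol, as a rough guide to those with a bacterial counterpart (*mRpL* up to 36 and *mRpL47*, *mRpS* up to 21 and *mRpS24*, without *mRpS18A*). Of the 36 proteins in this class, 2 (5.56%) were over 1.5-fold higher and 3 (8.33%) lower, against 4 (15.4%) and 2 (7.69%) of the other 26. The shares of all loci were 21% and 17.9%. The median *w1118* level was 75.7 FPKM for the first class and 47.3 for the second, and the median log2 ratios were -0.02 and -0.08.

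Proteins that sit side by side in the particle, as known from mammals, differed in how their mRNAs compared. Around the exit tunnel, where *mRpL47* was higher in *zldZnF2*, *mRpL23* was at 51.2 FPKM in *w1118* and 39.2 in *zldZnF2*, and *mRpL24* at 66.3 and 55.7. *mRpL45*, which in mammals holds the particle to the inner membrane, was at 82.8 and 84.0 FPKM. In the central protuberance, where *mRpL46* was higher, *mRpL40* was at 26.5 and 24.6 FPKM and *mRpL48* at 38.1 and 40.0. These neighbours were all within 1.5-fold. The paralogs *mRpS18A*, *mRpS18B* and *mRpS18C*, descended from the same bacterial protein, had log2 ratios of -0.48, -0.32 and 0.14. The first of them sits in the large subunit in mammals. The split counted it among the 26 despite this descent, and its symbol put it among the 23 *mRpS* genes. *mRpS29*, a GTP-binding protein known in mammals as a death-associated factor, was at 15.9 and 13.2 FPKM, the lowest *w1118* level among the 36 members with a log2 ratio below 0.

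Mitoribosomal protein genes lie in close contact with their neighbours in the annotated genome, which bears on values from libraries that do not mark the strand. Of the 60 members that have a row to themselves, 36 (60.0%) overlap an exon of a gene on the opposite strand at their 3′ end, against 31.8% of 5597 protein-coding genes that have a row to themselves. Partners were sought among all annotated genes for the members but only among protein-coding genes for the 5597, so the shares are not strictly alike. The overlaps of the members are 3 to 332 bases long, with a median of 49. Reads from such stretches cannot be assigned to either gene. The overlap reached 55.3% of the exon length in *mRpS24* (with *TBC1d7*) and 48.0% in *mRpS21* (with *CG8870*), and both of these were within 1.5-fold.

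Of the 6 genes higher in *zldZnF2*, *mRpL37*, *mRpL46* and *mRpS35* have exons free of any overlap. *mRpS2* overlaps *CG11927* over 61 bases, 6.60% of its exon length, and *CG11927* was at 78.9 FPKM in *w1118* and 64.2 in *zldZnF2*, the opposite order to *mRpS2*, whose level is the lower by far. *mRpL47* overlaps *Rlb1* over 6 bases (51.4 and 58.3 FPKM). *mRpS34* overlaps *Golgin104* over 36 bases (5.45 and 9.69 FPKM), a gene that was itself listed higher in *zldZnF2* with a log2 ratio of 0.73. The part of shared reads in these values was not tested. Over the 23 members free of overlap, 3 (13.0%) were over 2-fold higher, 0 over 2-fold lower and 1 (4.35%) over 1.5-fold lower, with a median log2 ratio of -0.06. The shares of all loci were 9.82%, 8.16% and 17.9%.

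**Figure D3:**
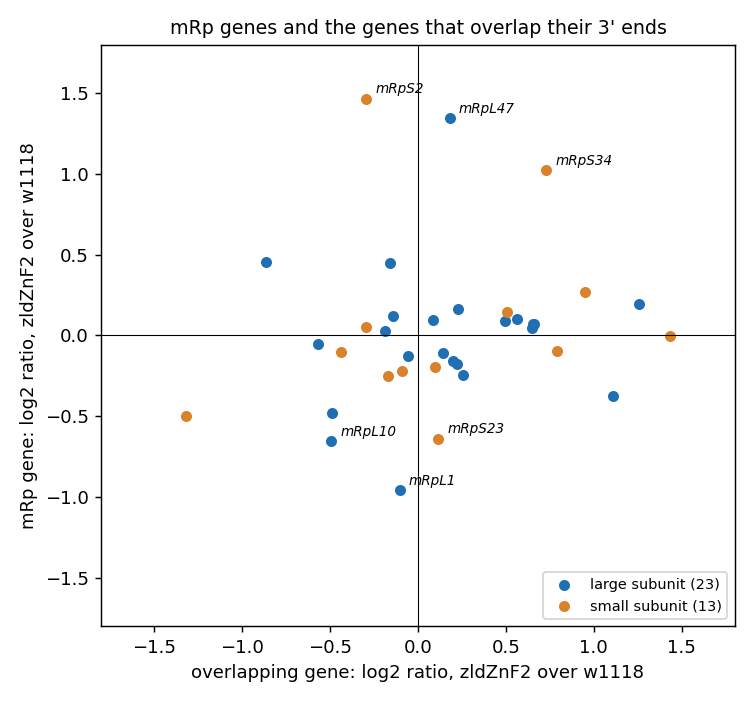
Log2 ratio of *zldZnF2* over *w1118* (FPKM + 1) of the 36 members whose 3′ ends overlap a gene on the opposite strand (vertical axis; 23 large subunit genes in blue, 13 small in orange) against that of the overlapping gene (horizontal axis). Of the 36 pairs, 21 have the same sign. *mRpS2*, *mRpL47* and *mRpS34* lie high with partners at -0.29, 0.18 and 0.73.

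At their 5′ ends, 45 of these 60 members (75%) begin within 500 bases of a protein-coding gene that runs the other way, against 39.6% of the 5597 genes. The limit of 500 bases was set after the values were seen. These divergent neighbours had a median log2 ratio of -0.17 and the 45 members -0.06, and 26 of the 45 pairs had the same sign. Among the 6 genes higher in *zldZnF2*, such neighbours include *CG2021* at 28 bases from *mRpL46*, *Kdm3* at 99 bases from *mRpL47* and *Mon1* at 222 bases from *mRpS2*. Their log2 ratios were -0.02, -0.01 and -0.50, so none of these 3 was over 1.5-fold higher alongside the mitoribosomal gene. Next to *mRpL20*, the gene *Icmt* begins at 399 bases and was listed low, at 4.63 and 0.959 FPKM. Its log2 ratio was -1.52, lower in *zldZnF2* like its neighbour. The neighbour of *mRpL1*, *CG9626* at 462 bases, had the opposite order, with a log2 ratio of 0.27 at 0.224 and 0.474 FPKM. That of *mRpS23*, *CenG1A* at 492 bases, had a log2 ratio of -0.33.

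The rest of the machinery of mitochondrial gene expression had a similar median but a wider spread, at lower levels. The interquartile ranges were 0.47 wide for translation factors, 0.66 for tRNA synthetases and 1.31 for genes of mitochondrial DNA. They were 0.34 for the members and 0.87 for all loci. The median *w1118* levels of these lists were 15.2, 5.51 and 14.4 FPKM, against 64.2 for the members. Over all loci, the range was 1.06 wide at 5 to 12 FPKM and 0.58 above 12. The part of the level in the spread was not tested. *bonsai*, which encodes a further small subunit protein under its own name, was at 36.8 FPKM in *w1118* and 47.2 in *zldZnF2*. All 11 listed genes of mitochondrial translation factors and related proteins on the arms passed the filter, with a median log2 ratio of -0.01. Of these, 2 (18.2%) were over 1.5-fold higher and 1 (9.09%) lower, against 21% and 17.9% of all loci. The highest were *bsf*, an RNA-binding protein of mitochondrial transcripts (2.52 and 9.04 FPKM), and *OXA1L*, which inserts new proteins into the inner membrane (5.93 and 9.80 FPKM). The lowest were the initiation factors *mIF2* (5.50 and 3.26 FPKM) and *mIF3* (57.3 and 40.6 FPKM).

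Of 13 mitochondrial tRNA synthetases past the filter (of 15 on the arms), which charge the tRNAs that the mitoribosome reads, 3 (23.1%) were over 1.5-fold higher and 1 (7.69%) lower (median -0.06). The shares of all loci were 21% and 17.9%. *PheRS-m* was at 3.57 FPKM in *w1118* and 12.2 in *zldZnF2*, and *TrpRS-m* at 1.29 and 5.35. *CysRS-m*, at 7.17 and 3.97 FPKM, and *GluRS-m*, at 10.4 and 7.38, were at the other end.

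Of 13 genes that maintain and transcribe mitochondrial DNA, 4 (30.8%) were over 1.5-fold higher and 4 (30.8%) lower (median 0.13). The shares of all loci were 21% and 17.9%. *PolrMT*, the mitochondrial RNA polymerase, was at 6.56 FPKM in *w1118* and 2.53 in *zldZnF2*, and *mTerf3*, a regulator of transcription in mitochondria, at 7.16 and 3.24. *Top3alpha*, a topoisomerase, was at 2.38 and 6.16 FPKM, and *PolG2*, the accessory subunit of the DNA polymerase, at 4.59 and 9.69. Proteins that copy and transcribe mitochondrial DNA thus lay on either side of 0.

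Genes for the nuclear subunits of the respiratory chain and ATP synthase had higher median levels in *w1118* than the mitoribosomal genes. These medians ran from 157.3 FPKM for complexes II and III to 636.9 for ATP synthase. All 22 genes of complex I past the filter (of 29) were within 1.5-fold. The share was 61.1% of all loci and 75.2% of loci above 12 FPKM in *w1118*. The 22 genes had a median log2 ratio of -0.12 and a median level of 216.0 FPKM in *w1118*. They ran from *ND-30* and *ND-15* (-0.47 and -0.30) to *ND-13A* and *ND-B12* (0.16 and 0.24). Of 12 genes of complexes II and III past the filter (of 15), 1 (8.33%) was over 1.5-fold higher and none was lower, against 21% and 17.9% of all loci. The higher gene was *UQCR-C2*, at 23.7 FPKM in *w1118* and 47.9 in *zldZnF2*. *ox* followed with a log2 ratio of 0.22, and *SdhD* and *SdhB* were the lowest with -0.35 and -0.31.

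Of 10 genes of complex IV past the filter (of 17), 1 (10%) was over 1.5-fold higher, against 21% of all loci. It was *COX7AL*, at 0.567 and 1.39 FPKM. *COX8* followed with a log2 ratio of 0.25, and *COX7A* and *levy* were the lowest with -0.30 and -0.20. Of 10 genes of ATP synthase (of 14), 2 (20%) were over 1.5-fold lower and 0 higher, against 17.9% and 21% of all loci. The 10 genes had a median log2 ratio of -0.18 and a summed level that differed by -12.5%. *blw*, the catalytic core's alpha subunit, was at 514.2 FPKM in *w1118* and 292.6 in *zldZnF2*. *ATPsynC*, the subunit of the rotating ring, was at 1046 and 675.2 FPKM in a row that it shares with a microRNA. *ATPsynO* and *ATPsynG* were highest with 0.13 and 0.11.

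Of 9 genes of protein import past the filter (of 14), 1 (11.1%) was over 1.5-fold higher and 2 (22.2%) lower, with a median of -0.18. The shares of all loci were 21% and 17.9%. *Tim23*, the channel of the inner membrane, was at 12.7 FPKM in *w1118* and 20.7 in *zldZnF2*, and *Hsc70-5* at 8.80 and 12.3. *Tom70*, a receptor on the outer membrane, was at 17.4 and 9.64 FPKM, and *mge*, at 13.1 and 6.33, has a row shared with *Eip63F-1*. The lists hold few genes, and differences between them were not tested.

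The proteins of cytoplasmic ribosomes gave the narrowest spread. Of 72 such genes past the filter (of 77), 71 (98.6%) were within 1.5-fold. The share was 61.1% of all loci and 75.2% of loci above 12 FPKM in *w1118*. The median log2 ratio of the 72 genes was -0.03, and their median level of 3798 FPKM in *w1118* far exceeded that of the mitoribosomal genes. The interquartile range of their log2 ratios was 0.08 wide, against 0.34 for the mitoribosomal genes. The exception was *RpL37-2*, a gene listed at 1.56 and 3.83 FPKM, followed by *RpS19b* (1.03 and 1.38 FPKM). *RpL34a* and *RpS5b* were the lowest with log2 ratios of -0.25 and -0.21.

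**Figure D4:**
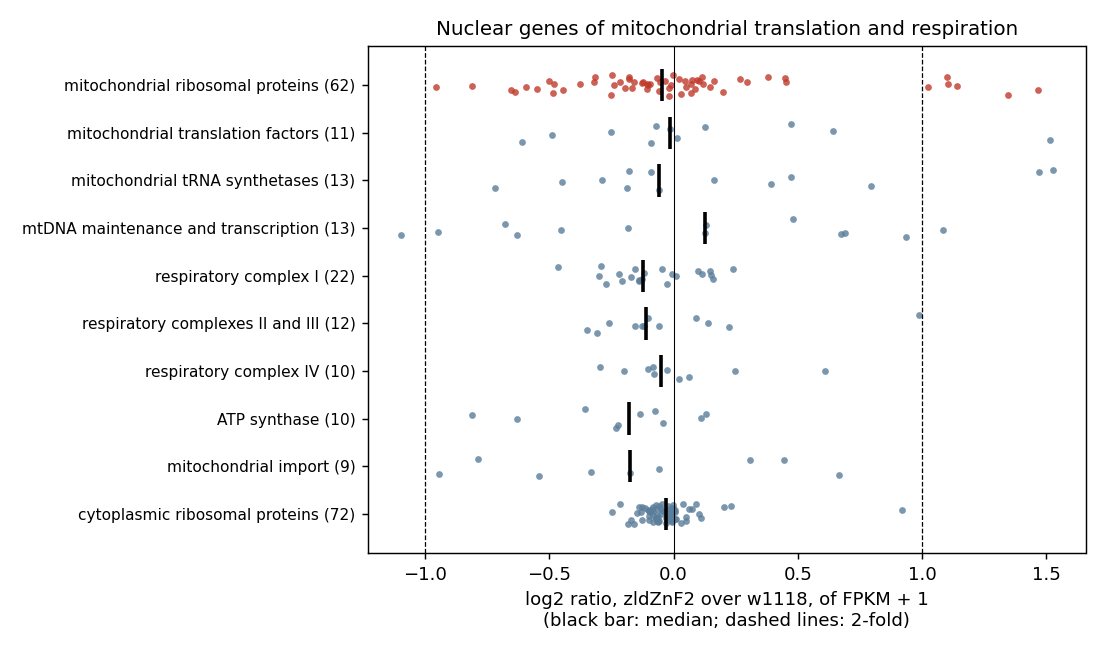
Log2 ratio of *zldZnF2* over *w1118* (FPKM + 1) for each gene past the filter in 10 lists of nuclear genes (points; number of genes in brackets; vertical position within a row is arbitrary), with the median as a black bar and dashed lines at 2-fold. All medians lie between -0.18 and 0.13. Past the upper line lie 6 mitoribosomal genes and *bsf*, *PheRS-m*, *TrpRS-m* and *Top3alpha* of the other lists. *PolrMT*, with a log2 ratio of -1.10, lies past the lower line. The cytoplasmic ribosomal genes form the tightest cluster.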

How the data were processed

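The 6 samples were grouped by the genotype in their titles. Per the methods and labels, single-end reads were trimmed and filtered by the authors on the Galaxy platform, aligned to dm6 (STAR), assembled (Cufflinks) and compared (Cuffdiff); the options for counting and normalization are not given in the sources used here. For each locus the authors deposited an FPKM for each genotype, taken over its 3 samples, so depth is unknown. The p-value and q-value columns, and the log2 fold change and test statistic, each handled as a score, are the authors' own deposited comparison and were not used. Library preparation used a kit that does not mark the strand.

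From the FPKM a log2 ratio was computed per locus with a pseudocount of 1, for loci on 2L, 2R, 3L and 3R that reached 1 FPKM in either genotype. Higher and lower loci were those past 2-fold, the study's limit, or 1.5-fold. With 1 value per genotype no test was run. The calculation was run on simulated data with known fold differences, which checks the arithmetic and not the error of the measured values. Symbols were matched to RefSeq names (assembly Release 6) by symbol or synonym where positions overlap (17241 of 17299). Coordinates are 1-based and those of Ensembl release 115 (dm6); all 62 members matched. Python 3.11.15, NumPy 2.4.6, pandas 2.3.3 and Matplotlib 3.10.9 were used. No sequence is shown, as none was at hand, and 1 neighbouring gene is not reported here.

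Members and lists were chosen with earlier results of these data known. Named members were the 8 highest and 8 lowest log2 ratios, the 5 highest and 5 lowest *w1118* levels, those past 1.5-fold and those sharing a row; in other lists, the 2 highest and 2 lowest. *mRpL11*, *mRpL39*, *mRpS33*, *mRpL23*, *mRpL24*, *mRpL45*, *mRpL40*, *mRpL48*, *mRpS18B*, *mRpS18C*, *mRpS29*, *mRpS24* and *mRpS21*, and the neighbouring genes, were added after their values were seen. Alternatives were other pseudocounts (0.1 and 5), other filters, rows of 1 gene, centring and scaling.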

Additional observations from a re-analysis of the deposited data

How the results depend on the processing

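The count of 6 members over 2-fold was 2 (*mRpS2* and *mRpL47*) with a pseudocount of 5, which draws the ratios of low levels towards 0 by construction; all 6 were still over 1.5-fold higher there, and 9 rather than 11 members were past 1.5-fold. With the members restricted to those with exons free of overlap, an alternative added after the data were seen that leaves 23 genes, 3 were past 2-fold and 4 past 1.5-fold. A pseudocount of 0.1, no filter, an FPKM of at least 5 in either or at least 1 in both genotypes, rows of 1 gene, centring on the median and an equal sum of FPKM left 6 members past 2-fold, and 10 or 11 past 1.5-fold. The medians of all members and of each subunit moved by less than 0.1 under every alternative run. No paired analysis was possible because the file holds 1 value per genotype, and for the same reason no replicate could be left out. Depth per sample, and with it the error of each level, is unknown.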

Other observations

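The members were spread over the arms, with 12 on 2L, 12 on 2R, 17 on 3L and 21 on 3R. Of the 6 genes over 2-fold higher in *zldZnF2*, 3 (*mRpL46*, *mRpS34* and *mRpS35*) lie on 3L, 2 (*mRpL37* and *mRpL47*) on 3R, 1 (*mRpS2*) on 2L and 0 on 2R. The median log2 ratio of the members was 0.16 on 3L, where that of all 1508 loci past the filter was -0.04, and -0.16 on 2R, where that of all 1564 loci was -0.00. These differences between arms were not tested. In the row of *mRpS9*, the opposite-strand gene *ArgRS-m* overlaps it over 325 bases, and the listed level of *mRpS9* (135.8 FPKM in *w1118*) is far above that of *ArgRS-m* (1.56 FPKM in *w1118* and 3.42 in *zldZnF2*).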
